A study of Homo sapiens with 6 samples.

Results

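The genes described here form a stretch of the long arm of human chromosome 4, from its proximal part to LRBA. The rule that defined the block named 59 genes, of which 55 had a probe set with a single gene symbol, out of 18417 genes measured in the series. The members were chosen from the same contrast that is described below, as a block of small falls in the treated cells, so their differences between groups are given as a description and support no statement of their own. PKD2, UBE2D3 and USO1 had no probe set under their symbol, and LARP7 was found only on a probe set shared with ZGRF1. That shared probe set read 6.99, 6.91 and 6.85 on the parent arrays and 6.51, 6.65 and 6.57 on the colony arrays.

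All samples came from WM164, an established line of melanoma cells whose BRAF kinase is mutant, and RNA of each was hybridised to its own 1-colour Affymetrix whole-transcript array. The parent group had 3 samples, labelled control, and per the series title it received the solvent DMSO. The colony group had 3 samples, labelled IDTC colony and described as resistant, grown for 60 days in 500 nM PLX4032, an inhibitor of mutant BRAF. The colonies were not compared with another line, both groups being WM164, and the sources used here do not say whether the samples of a group were separate cultures, so the spread that p-values rest on may be a technical one. For extraction and hybridisation batches the sources used here name none, so batch and group cannot be told apart.

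Genes that lie side by side on a chromosome share their DNA dose and part of their chromatin surroundings, which is why expression in tumour cells is often read along the gene order. Many of the listed members serve every cell. They encode parts of the machinery for reading DNA, processing RNA, moving membrane vesicles and tagging proteins with ubiquitin, and many work in complexes whose other parts are encoded on other chromosomes. The stretch also holds regulators such as CLOCK, a transcription factor of the circadian clock, REST, a repressor of neuronal genes, and INPP4B, a lipid phosphatase of the PI3K pathway. DNA was not analysed here.

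The start regions of a few members are shown first, because several lie head to head with a neighbour and allow the values of 2 genes to be set beside 1 shared stretch of DNA. In the RefSeq promoter table (GRCh38.p14), 50 of the 59 members had an entry. USO1, BMP2K, PAQR3, WDFY3, RAP1GDS1, PPP3CA, SEC24D, TBC1D9 and LSM6 had none. The lines below give the bases between the start of the gene on the minus strand, named first, and that of the gene on the plus strand, 5′ to 3′ on the plus strand. Capitals mark exact matches, on either strand, to the SP1 box GGGCGG, the ETS core CCGGAAG, the CCAAT box CCAAT, the NRF1 core GCGCATG, the CRE core TGACGT, the YY1 core AAGATGG, the E-box CACGTG or the AP-1 motif TGANTCA.
RCHY1 and THAP6, chr4:75514431-75514472: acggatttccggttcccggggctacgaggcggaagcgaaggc
HNRNPDL and ENOPH1, chr4:82430463-82430589: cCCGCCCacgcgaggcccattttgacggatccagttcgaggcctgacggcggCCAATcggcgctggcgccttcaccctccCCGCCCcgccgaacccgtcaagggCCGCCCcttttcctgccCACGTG
HELQ and MRPS18C, chr4:83455884-83456057: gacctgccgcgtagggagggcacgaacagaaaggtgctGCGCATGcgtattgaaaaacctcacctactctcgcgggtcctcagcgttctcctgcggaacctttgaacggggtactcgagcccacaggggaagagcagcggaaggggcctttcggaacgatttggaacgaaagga
NDUFC1 and NAA15, chr4:139301235-139301504: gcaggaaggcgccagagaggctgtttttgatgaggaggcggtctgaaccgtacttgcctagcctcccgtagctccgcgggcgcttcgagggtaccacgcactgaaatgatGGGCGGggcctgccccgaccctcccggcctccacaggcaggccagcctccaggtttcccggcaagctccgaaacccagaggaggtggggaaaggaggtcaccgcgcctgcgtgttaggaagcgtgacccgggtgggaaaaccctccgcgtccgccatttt

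The next lines give the 250 bases before the start of the 3 members with the lowest difference that had an entry, and of CENPC, the highest with a single entry, each 5′ to 3′ on the strand of its gene and marked in the same way.
USP53, chr4:119212463-119212712, plus strand: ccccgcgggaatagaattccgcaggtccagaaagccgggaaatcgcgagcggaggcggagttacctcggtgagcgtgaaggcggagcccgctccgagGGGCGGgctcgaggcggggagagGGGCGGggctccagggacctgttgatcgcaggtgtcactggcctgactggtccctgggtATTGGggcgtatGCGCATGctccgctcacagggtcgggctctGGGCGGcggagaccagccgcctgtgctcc
MRPL1, chr4:77862580-77862829, plus strand: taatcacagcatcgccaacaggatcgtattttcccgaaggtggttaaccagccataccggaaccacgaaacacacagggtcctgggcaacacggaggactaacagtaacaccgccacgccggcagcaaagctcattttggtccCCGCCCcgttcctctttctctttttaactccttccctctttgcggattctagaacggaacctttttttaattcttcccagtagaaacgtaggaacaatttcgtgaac
CAMK2D, chr4:113761739-113761988, minus strand: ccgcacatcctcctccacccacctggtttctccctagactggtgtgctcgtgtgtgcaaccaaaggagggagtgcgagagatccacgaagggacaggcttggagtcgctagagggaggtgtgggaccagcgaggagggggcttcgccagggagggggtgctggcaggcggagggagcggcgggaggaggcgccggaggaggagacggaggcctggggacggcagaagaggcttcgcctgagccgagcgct
CENPC, chr4:67545504-67545753, minus strand: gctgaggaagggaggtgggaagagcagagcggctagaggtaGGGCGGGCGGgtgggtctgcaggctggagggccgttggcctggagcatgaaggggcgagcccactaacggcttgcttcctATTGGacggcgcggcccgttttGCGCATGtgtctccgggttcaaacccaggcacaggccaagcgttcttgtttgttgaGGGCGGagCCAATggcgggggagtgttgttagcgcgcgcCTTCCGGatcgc

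A CpG-rich window, with a GC share above 50% and an observed over expected CpG ratio above 0.6, was found in 76.5% of the 98 promoter windows of the members (300 bases each, 250 before and 50 after the start). The share was 46.8% over all 35116 windows of the table and 76.6% over the windows of genes above the median expression. The SP1 box was present in 69.4% of the members' windows, in 45.0% of all windows and in 68.2% of those of genes above the median expression. The ETS core was present in 17.3%, 10.3% and 17.5% of the windows of these 3 sets, and the CCAAT box in 35.7%, 34.6% and 35.1%. The E-box was present in 13.3%, 7.3% and 9.9%, and the NRF1 core in 10.2%, 4.4% and 6.7%. The CRE core was present in 10.2%, 8.0% and 10.9%, the AP-1 motif in 5.1%, 7.7% and 4.8%, and the YY1 core in 2.0%, 5.8% and 7.6%. For the CpG-rich share and for the SP1, ETS and CCAAT letters, the members' windows were thus close to those of other genes above the median expression. A match is a run of letters and not a measured binding site.

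Pearson correlations across genes were 0.9968 to 0.9984 within a group and 0.9666 to 0.9688 between the groups. Melanocyte lineage markers averaged between 10.15 and 10.19 on the parent arrays and between 10.09 and 10.13 on the colony arrays (log2 scale), and 6 of the 7 measured lay above the median expression of all genes, 7.02. Within that average 2 of the 7 were lower, MLANA (-1.45) among them, and 3 higher past the test. Of the other cell types, 1 of 4 keratinocyte, 2 of 5 fibroblast, 0 of 4 endothelial and 0 of 3 leukocyte markers lay above the median expression. The leukocyte average was 5.41 to 5.51 on the parent arrays and 4.66 to 4.72 on the colony arrays, with LYZ lower past the test (-2.35), and the part of these markers in the members' values was not tested. With 3 arrays a group, precision is limited by their number.

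The members as a group were lower in the colonies, by a median of -0.37 on the log2 scale (colony minus parent), against 0.00 over all genes. Their median deviation from the parent mean was 0.06, -0.05 and -0.01 on the 3 parent arrays and -0.39, -0.38 and -0.33 on the 3 colony arrays, so the groups did not overlap. Of the 55 members, 35 were lower and 4 higher past the test (limma with adjusted p under 0.05), and 16 did not pass. RPL34 was 1 of the 4 on the probe set used, and its second probe set went the other way. Over all genes, 22.9% were called lower and 20.9% higher, 43.8% in all. Because this contrast chose the members, nothing is read from the excess. On 36 members all 3 colony arrays lay below all 3 parent arrays (26.4% of all genes), and on 6 all lay above (24.4% of all genes). In these bulk samples, fewer cells of a kind and less RNA per cell cannot be told apart.

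The differences were not uniform. They ran from -1.71 for USP53 to 0.57 for INPP4B, with the middle 50% of members between -0.63 and -0.05, and 15 members differed by less than 0.1. The SD within a group had a median of 0.05 over the members and reached 0.18. The spread among members was thus far wider than the spread between arrays of a group. By at least 2-fold, USP53, RAP1GDS1, MRPL1 and CAMK2D were lower past the test (2.76% of all genes).

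**Figure D1:**
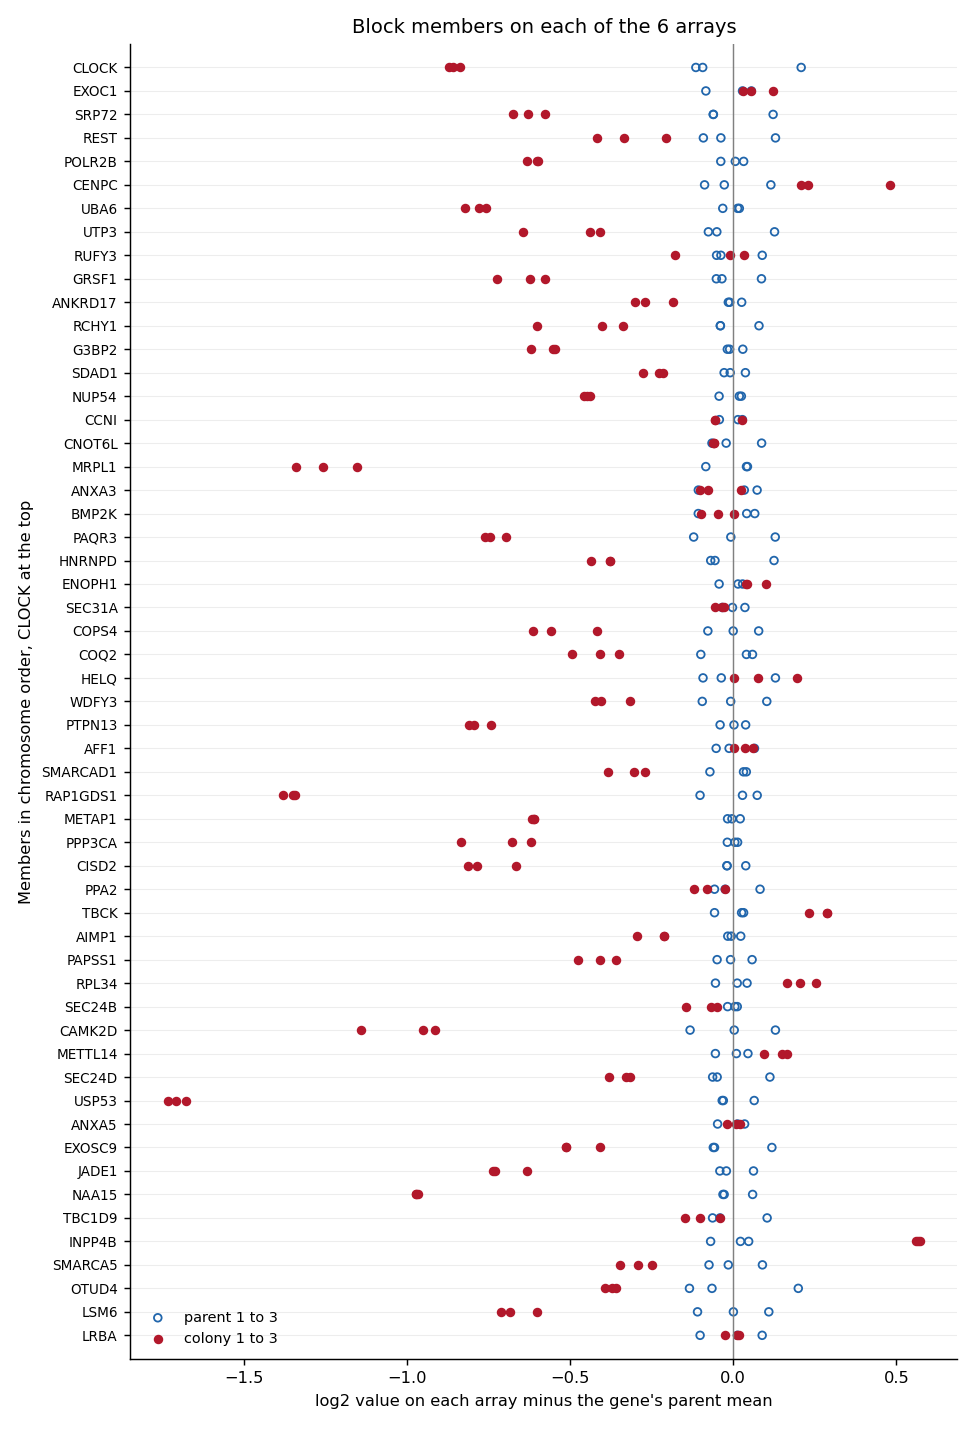
Each row is 1 of the 55 measured members in chromosome order, and each point is 1 array, as its log2 value minus the mean of the gene's 3 parent arrays (open circles parent, filled circles colony). USP53, RAP1GDS1, MRPL1 and CAMK2D lie farthest to the left, INPP4B farthest to the right, and members such as ANXA5 and LRBA show overlapping groups.

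All members measured that handle ubiquitin or process proteins were lower, with 7 of 7 past the test and a median of -0.61. Over all genes 22.9% were called lower, and 36.8% of those above the median expression. As this contrast chose the members, nothing is read from the counts of this role or of those that follow. USP53, which encodes a member of the ubiquitin-specific protease family found at cell junctions, read 9.86, 9.95 and 9.86 on the parent arrays and 8.18, 8.21 and 8.16 on the colony arrays. The colony mean was 30.6% of the parent mean on the linear scale (log2 difference -1.71 ± 0.05, SE, n = 3 arrays per group), and the 2 groups lay far apart. NAA15, the auxiliary subunit that anchors the main N-terminal acetyltransferase to the ribosome, read 10.01, 9.92 and 9.92 in parent cells and 8.98 on each colony array. Its difference was -0.97 ± 0.05. UBA6, which activates ubiquitin in a pathway separate from the main activating enzyme, read 8.87, 8.82 and 8.86 against 8.03, 8.07 and 8.09, with no overlap. METAP1, which removes the first methionine of new proteins, changed by -0.61, COPS4, a subunit of the COP9 signalosome, by -0.53, and RCHY1, a ubiquitin ligase that acts on p53, by -0.45. The mean of RCHY1 lay below the median expression of all genes. OTUD4, a deubiquitinase, was among the 4 members nearest the block's median. It read 8.30, 7.97 and 8.04 in parent cells and 7.71, 7.73 and 7.74 in colonies, so that the parent arrays spread more than the colony arrays.

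Signalling and calcium genes held the widest range of any role, from -1.36 to 0.57, with 5 of 8 measured members lower, 1 higher and a median of -0.72. RAP1GDS1, which encodes a chaperone of small GTPases, read 9.39, 9.22 and 9.35 on the parent arrays and 7.97, 7.98 and 7.94 on the colony arrays, a difference of -1.36 ± 0.06. CAMK2D, the delta chain of the calcium- and calmodulin-dependent kinase CaM kinase II, read 9.39, 9.13 and 9.26 against 8.12, 8.35 and 8.31. The colonies held 49.9% of its parent level on the linear scale. PPP3CA, the alpha catalytic chain of the calcium-dependent phosphatase calcineurin, read 9.09, 9.05 and 9.08 against 8.24, 8.39 and 8.45 (-0.71 ± 0.06). The phosphatase gene PTPN13 (-0.78) and PAQR3, a Golgi protein that holds RAF kinases away from the plasma membrane (-0.73), stood close to it. PAQR3 had a mean below the median expression of all genes.

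INPP4B was the only member of its role that was higher past the test. The phosphatase removes a phosphate from a lipid product of PI3K, and its gene read 10.12, 10.03 and 10.15 on the parent arrays and 10.67, 10.67 and 10.66 on the colony arrays. All colony arrays lay above all parent arrays, and the difference of 0.57 ± 0.05 made it the highest member. The calcium-dependent membrane-binding protein genes ANXA5 (0.00) and ANXA3 (-0.05) did not pass. ANXA5 read 12.58, 12.56 and 12.50 against 12.53, 12.55 and 12.57, with the groups interleaved. ANXA3 lay at 4.08 or less on every array, below the median expression of all genes, so its small difference says little.

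Among the RNA and ribosome genes 9 of 12 measured were lower and 1 higher, with a median of -0.44. MRPL1, a protein of the large subunit of the mitochondrial ribosome, read 6.67, 6.54 and 6.66 in parent cells and 5.28, 5.36 and 5.47 in colonies (-1.25 ± 0.06). Both group means lay below the median expression, and whether the colony level was above background was not tested. LSM6, part of the ring that binds U6 RNA and decapped messages, changed by -0.67, GRSF1, which organises RNA granules of mitochondria, by -0.64, and the stress granule protein gene G3BP2 by -0.57. UTP3 (-0.50) and SDAD1 (-0.24) are needed to build ribosomes, and EXOSC9 (-0.48) is a subunit of the RNA exosome. HNRNPD, an RNA-binding protein that shortens the life of messages with AU-rich elements, read 11.16, 10.96 and 10.98 against 10.66, 10.66 and 10.60. Its difference of -0.40 ± 0.06 was near the block's median.

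METTL14, the partner of the enzyme that writes the m6A mark on RNA, read 8.05, 7.95 and 8.01 in parent cells and 8.15, 8.16 and 8.10 in colonies. The groups did not overlap, but the difference of 0.14 ± 0.05 did not pass the test. The ribosomal protein gene RPL34 read 12.15, 12.12 and 12.06 against 12.28, 12.32 and 12.37 on the probe set used. A second probe set under the same symbol read 6.16, 5.99 and 5.90 against 5.76, 5.91 and 5.48, and so differed by -0.30 where the first differed by 0.21. With the mean of both the difference was -0.05, so the direction of RPL34 rests on the choice of probe set. By its number the probe set used, 8035829, falls between those of ELL (8035477) and POLR2I (8036276) on chromosome 19. The second, 8096765, falls between those of AIMP1 (8096718) and SEC24B (8096781) on chromosome 4. The rise may therefore not be that of the gene in the block, and which locus each probe set reads was not tested. Ribosomal protein genes have near-identical processed copies elsewhere in the genome, and these arrays cannot assign the signal with certainty.

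Chromatin, transcription and nuclear genes were lower in 8 of 12 cases and higher in 1, with a median of -0.31. CLOCK, which pairs with BMAL1 to drive circadian transcription, read 9.23, 8.93 and 8.91 on the parent arrays and 8.16, 8.19 and 8.15 on the colony arrays. The colonies held 55.2% of its parent level (-0.86 ± 0.09). POLR2B, the second-largest subunit of RNA polymerase II, read 10.15, 10.22 and 10.20 against 9.59, 9.59 and 9.56, a difference of -0.61 ± 0.04 with tight arrays in both groups. REST read 8.65, 8.43 and 8.48 against 8.10, 8.31 and 8.19 (-0.32 ± 0.08). Its groups were separate by a small margin. SMARCA5, the motor of the ISWI remodelling complexes, read 9.49, 9.38 and 9.32 against 9.05, 9.15 and 9.11 (-0.30 ± 0.06), and SMARCAD1, another remodelling ATPase, changed by -0.32. JADE1, a scaffold of a histone acetyltransferase complex, changed by -0.70, and NUP54, a protein of the central channel of the nuclear pore, by -0.45. The ankyrin repeat protein gene ANKRD17 was the least changed of the lower members of this role, at -0.25.

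CENPC, which links centromeric chromatin to the kinetochore, read 6.99, 6.85 and 6.79 in parent cells and 7.10, 7.35 and 7.08 in colonies. Every colony array was above every parent array, by 0.31 ± 0.09, and the call was lost without parent replicate 2 (0.29), without parent replicate 3 (0.26) or without colony replicate 2 (0.22). AFF1 (0.03), a scaffold of the super elongation complex, the cyclin gene CCNI (-0.03, and 0.05 after quantile normalization) and the DNA helicase gene HELQ (0.09) did not pass. HELQ read 5.91, 5.68 and 5.74 against 5.78, 5.97 and 5.85, below the median expression and with overlapping groups.

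Of the membrane traffic genes 3 of 11 measured were lower (27.3%, beside 22.9% of all genes and 36.8% of those above the median expression, as all 11 are), 1 was higher and 7 did not pass. Their median was -0.05, and no difference between roles was tested. The COPII coat, which buds vesicles from the endoplasmic reticulum, has 3 members here. Its outer-coat gene SEC31A read 10.26, 10.23 and 10.20 against 10.20, 10.17 and 10.20, and the cargo-binding gene SEC24B changed by -0.09. SEC31A turned to 0.05 after quantile normalization, so its direction is not settled. SEC24D, a paralog of SEC24B that also binds cargo, read 8.76, 8.60 and 8.59 against 8.27, 8.32 and 8.34 (-0.34 ± 0.06) and did not overlap. SRP72, a protein of the signal recognition particle that brings ribosomes to the endoplasmic reticulum, had the lowest value of the role (-0.63), and WDFY3, an adaptor of selective autophagy, read 7.78, 7.58 and 7.67 against 7.26, 7.27 and 7.36 (-0.38 ± 0.06).

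EXOC1, a subunit of the exocyst that tethers secretory vesicles, read 8.44, 8.33 and 8.47 on the parent arrays and 8.44, 8.53 and 8.47 on the colony arrays, with overlapping groups. RUFY3 (-0.05), BMP2K (-0.05) and TBC1D9 (-0.10), which act in endosomal and vesicle traffic, overlapped as well. LRBA, which keeps recycling cargo away from lysosomes, read 8.47, 8.28 and 8.40 against 8.40, 8.40 and 8.36 (0.00 ± 0.06). TBCK, a gene of the Rab GTPase-activating family, read 7.74, 7.65 and 7.74 against 8.0, 7.94 and 8.0, and all colony arrays lay above all parent arrays (0.27 ± 0.05). Of the metabolic members, CISD2, an iron-sulphur protein of the endoplasmic reticulum and mitochondria (-0.76), COQ2, an enzyme of coenzyme Q synthesis (-0.42), and PAPSS1, which makes the sulphate donor PAPS (-0.41), were lower past the test. The mitochondrial pyrophosphatase gene PPA2 (-0.08) and ENOPH1, an enzyme of methionine salvage (0.06), did not pass.

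**Figure D2:**
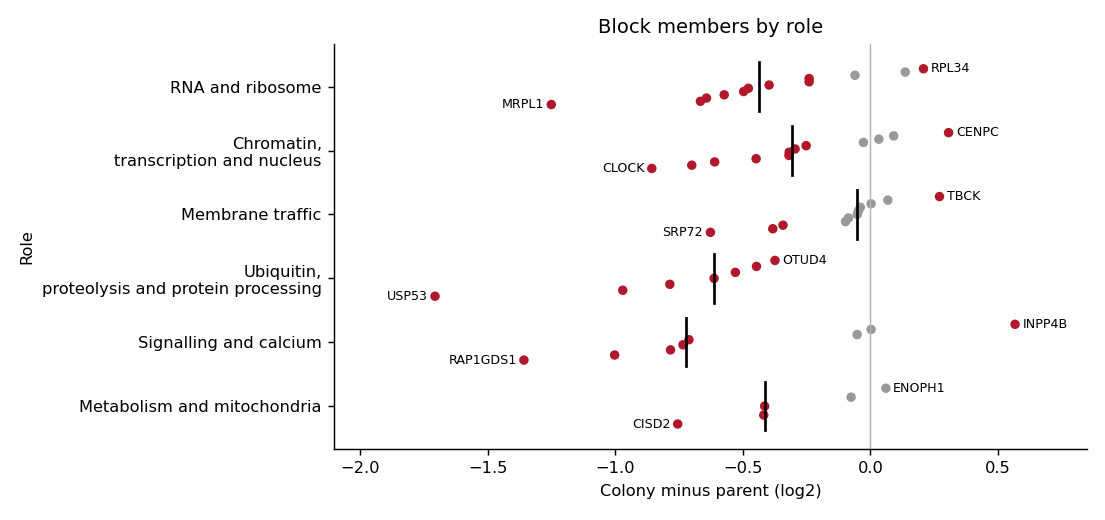
Each point is 1 member, placed by its colony minus parent difference on the log2 scale and grouped by role, with the vertical bar at the role's median; red points passed the test and grey points did not. The membrane traffic genes cluster near 0 (median -0.05), and the ubiquitin and protein processing genes all lie to the left (median -0.61).

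Head-to-head neighbours did not always share a value. RCHY1 (-0.45) and THAP6, whose starts lie 43 bases apart, were both lower, THAP6 by -0.54. NDUFC1, a subunit of respiratory complex I, and NAA15, with starts 271 bases apart, differed by -0.63 and -0.97. HNRNPDL (-0.20) was lower past the test, whereas ENOPH1, 128 bases away, was not. HELQ stood at 0.09 and MRPS18C, a protein of the mitochondrial ribosome that starts 175 bases away, at -0.66, both below the median expression. The widest gap was that of USP53 (-1.71) and the uncharacterised gene LOC101929762 (0.00), whose starts lie 69 bases apart, but LOC101929762 lay below the median expression, so its value says little. TBCK (0.27) and AIMP1 (-0.24), a scaffold of the multisynthetase complex, start 341 bases apart, and they differed in opposite directions, both past the test.

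Over the whole genome, 386 head-to-head pairs with starts within 400 bases had both genes above the median expression. Their differences correlated at r = 0.29 across pairs, which share the same 6 arrays, and the 2 genes of a pair lay a median of 0.35 apart. For 8798 other pairs, each next to each other among the genes above the median expression, r was 0.18 and the median gap 0.41. Dimmer genes may lie between the 2 genes of such a pair. Only head-to-head pairs found within 400 bases in the promoter table were left out of them. The gap between TBCK and AIMP1 was 0.51 and that between NDUFC1 and NAA15 was 0.34.

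The lower values were not limited to the block. In the RefSeq gene order, the span from CLOCK to LRBA held 288 measured genes besides the members. Over all 288 the median was -0.02, and 26.4% were called lower, beside 22.9% of all genes. The 202 of them below the median expression had a median of -0.01. Taking only genes above the median expression, the members had a median of -0.36 (n = 50) and the other genes of the span -0.31 (n = 86). The short arm of chromosome 4 had a median of -0.22 (n = 100), the proximal long arm before CLOCK -0.40 (n = 8) and the long arm beyond LRBA -0.22 (n = 55). Among such genes of the series, 36.8% were called lower, 31.2% higher and so 68% in either direction. All 3 colony arrays lay below all 3 parent arrays for 33 of these 50 members and for 41% of such genes. The proximal long arm had 6 of 8 genes called lower, and the share was 64.0% of the members, 59.3% of the other genes of the span, 54.0% of the short arm and 52.7% of the distal long arm.

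**Figure D3:**
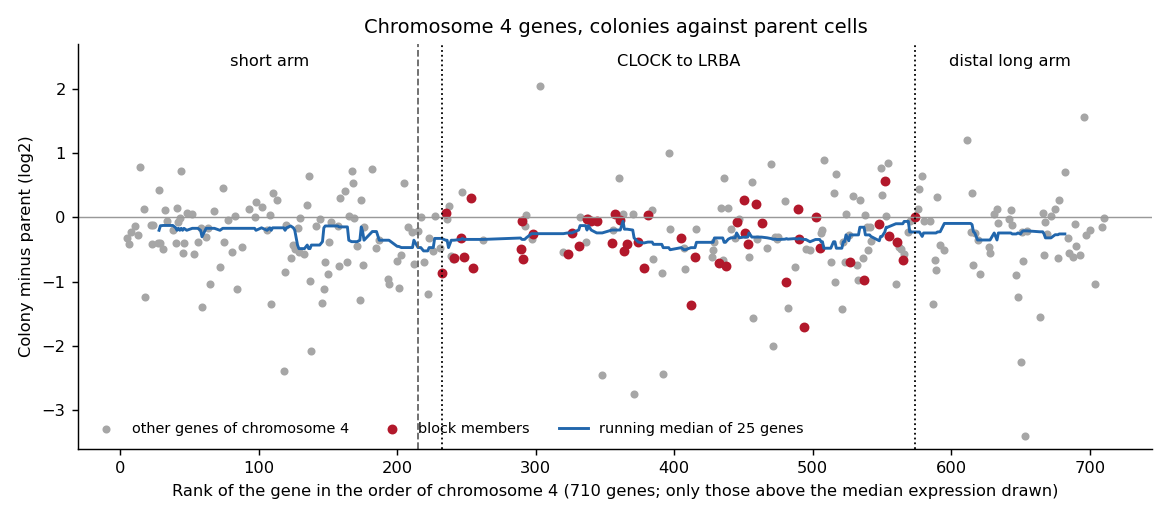
Each point is 1 gene of chromosome 4 above the median expression, placed by its rank in the gene order and its colony minus parent difference on the log2 scale; red points are members, the line is a running median of 25 genes, dotted lines mark CLOCK and LRBA, and the dashed line marks the first gene of the long arm. The running median stays between -0.52 and -0.06 along the chromosome, and no lasting step is seen at LRBA. Only 8 such genes lie on the long arm before CLOCK, fewer than the window holds, so the line cannot resolve a step there.

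Genes just outside and just inside the edges had values of either sign. The 4 measured genes just outside the proximal edge were PDGFRA (-0.57), KIT (0.11), KDR (-0.15) and TMEM165 (-0.47). The first members inside were CLOCK (-0.86) and EXOC1 (0.07), with the other genes PDCL2 and NMU between them. The last members were OTUD4 (-0.37), LSM6 (-0.67) and LRBA (0.00), and the next genes outside were MAB21L2 (-0.06), RPS3A (0.13), SH3D19 (0.44) and PRSS48 (-0.07). PDGFRA, KIT, KDR, MAB21L2 and PRSS48 lay below the median expression. Among genes above the median expression, the median of the span minus that of the distal long arm was -0.10. Divided by gene order into 4 stretches with near-equal numbers of genes, the span had medians of -0.32, -0.22, -0.33 and -0.32 over such genes, and the members in those stretches -0.50, -0.31, -0.32 and -0.36.

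Chromosome 4 had the lowest median of the 23 chromosomes compared (1 to 22 and X), at -0.30 over 299 genes above the median expression. Chromosome 7 (-0.22), chromosome 14 (-0.20), chromosome 2 (-0.19) and chromosome 5 (-0.18) came next, and chromosome 17 (0.25) and chromosome 21 (0.34) were at the other end. The middle 50% of genes ran from -0.61 to 0.02 on chromosome 4 and from -0.53 to 0.02 on chromosome 7, so the distributions of these chromosomes overlapped widely. No test of a difference between chromosomes was made.

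**Figure D4:**
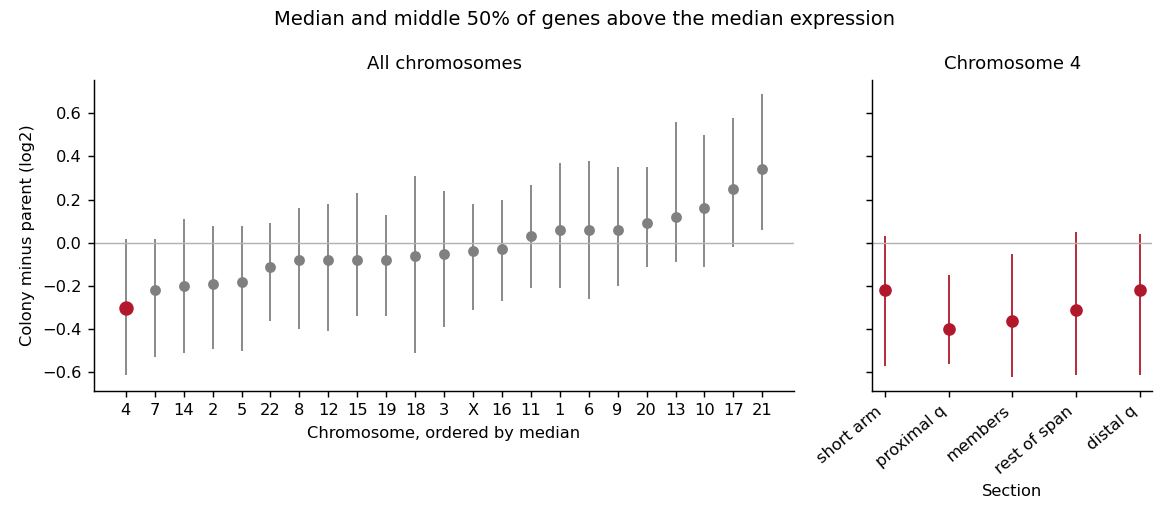
Points are medians of the colony minus parent difference (log2) over genes above the median expression and bars span the middle 50% of genes, for each chromosome on the left and for sections of chromosome 4 on the right. Chromosome 4, in red, has the lowest median (-0.30), and all 5 of its sections lie between -0.40 and -0.22.

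Genes of the span that are not members reached further than the members in both directions. The 4 lowest above the median expression were GPAT3, an enzyme of triglyceride synthesis (-2.75), ANTXR2, a receptor for anthrax toxin and collagen (-2.45), the secreted protein gene SPP1, or osteopontin (-2.43), and the fatty acid elongase gene ELOVL6 (-2.0). The 4 highest were the chemokine gene CXCL8 (2.04), the ISG15 ligase gene HERC5 (1.0), the lipid transfer protein gene BLTP1 (0.89) and the signalling adaptor gene GAB1 (0.84). GPAT3 fell from 9.48 ± 0.09 to 6.72 ± 0.07 (mean ± SD, n = 3).

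Several growth factor and chemokine genes that lie within the span were dim. EREG (0.03), BTC (-0.06), CXCL1 (0.01), CXCL2 (0.09), CXCL5 (0.01) and CXCL6 (0.03) did not pass, and all of these lay below the median expression. EGF rose by 0.84, and FGF2 (-0.70), LEF1 (-1.57), NFKB1 (-0.66) and BMPR1B (-0.80) fell.

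Partners of the members on other chromosomes show whether the rest of each complex was lower too. They stand outside the rule, and 24 lists of complexes, paralogs and targets gave 226 measured genes. Of these, 95 were lower and 55 higher past the test, and their median was -0.09. Among the 190 above the median expression 44.7% were lower and 25.8% higher, against 36.8% and 31.2% of all such genes. The values below are from the limma fit over all genes, and the lists are described by their counts and medians.

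RNA polymerase II subunits were lower on several chromosomes at once. Of 11 measured besides POLR2B, 8 fell, 1 rose and the median was -0.47. POLR2C changed from 9.64 ± 0.11 to 8.74 ± 0.07 (mean ± SD, n = 3, limma adjusted p = 3e-05) and POLR2A, the catalytic subunit, from 10.08 ± 0.02 to 9.21 ± 0.08 (limma adjusted p = 9.1e-06), while POLR2G rose by 0.42. POLR2B (-0.61) was thus within the range of its partners, -0.89 to 0.42. More partners were also lower than higher in the nuclear pore (11 lower and 3 higher of 18, median -0.35), the COP9 signalosome (5 and 2 of 8, -0.33) and the signal recognition particle (5 and 1 of 7, -0.28). In the LSM ring 5 of 7 were lower (median -0.34) and in the CCR4-NOT deadenylase 7 of 10 (-0.27). The partners that rose were NUP133 (0.57), NUP214 (0.44) and NUP85 (0.19) of the pore, COPS7A (0.53) and GPS1 (0.50) of the signalosome and SRP68 (0.42) of the signal recognition particle. LSM7 changed by -0.74 and LSM1 by -0.50, SRPRB by -0.94 and SRP54 by -0.56. In the other lists CNOT7 changed by -0.65 and CNOT9 by -0.55, NUP50 by -1.21 and NUP210 by -0.94, and COPS8 by -0.75 and COPS5 by -0.64. In CCR4-NOT the member of the block, the nuclease gene CNOT6L (-0.06), equalled the highest of its partners at 2 decimals. A second probe set of CNOT6L differed by -0.10, so this rank rests on the choice of probe set. By its number the probe set used, 7989128, falls between those of COPS2 (7988605) and ANXA2 (7989335) on chromosome 15. The second, 8101228, falls between those of the block members CCNI (8101212) and PAQR3 (8101237). Which locus each reads was not tested.

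Partners of other members lay on both sides of 0, and no difference between a member and its partners was tested. CAMK2D (-1.0) stood below all 4 measured partners of CaM kinase II, among which CAMK2G, the gamma chain, rose by 0.48 ± 0.05 (limma adjusted p = 0.0002). PPP3CA (-0.71) likewise lay below the 9 calcineurin partners, whose median was 0.19, with 2 lower and 4 higher. The regulatory subunit gene PPP3R1 (-0.45) and the gamma catalytic chain gene PPP3CC (-0.22) fell, as PPP3CA did. The beta catalytic chain gene PPP3CB rose by 0.55, the target transcription factor gene NFATC2 by 0.77 and the feedback inhibitor gene RCAN1 by 0.69. Of the ISWI partners of SMARCA5 4 of 8 fell and 3 rose, with a median of -0.20. BAZ1A (-0.70), POLE3 (-0.52), BAZ1B (-0.44) and CHRAC1 (-0.36), all accessory subunits of ISWI complexes, fell with SMARCA5. SMARCA1, the other ISWI motor, rose by 0.99 ± 0.05 (limma adjusted p = 5.1e-06). BPTF (0.79) and RSF1 (0.52), also subunits of ISWI complexes, rose too, and BAZ2A (-0.05) did not pass. Of the COPII partners 5 of 11 fell and 2 rose (median -0.02), with SAR1B at -0.62 and SEC31B, the paralog of SEC31A, at 0.86. INPP4B (0.57) lay above all 7 measured PI3K and phosphatase genes, whose values ran from -0.13 to 0.14. Of those 7, 0 passed in limma at an adjusted p under 0.05, and 1 had an unadjusted p under 0.05.

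Among the circadian genes more were higher than lower while CLOCK was lower, with 8 of 16 higher, 3 lower and a median of 0.17. PER3, a repressor of the clock, rose from 7.56 ± 0.07 to 9.17 ± 0.02 (limma adjusted p = 4.6e-07), and DBP (0.61), CIART (0.47) and NR1D2 (0.38), which are output or feedback genes, rose too. BHLHE41, another repressor, fell from 10.59 ± 0.00 to 7.91 ± 0.09 (limma adjusted p = 1.3e-07). NPAS2, a paralog that can stand in for CLOCK, changed by -0.94, and PER2 by -0.45. BMAL1 (0.09), PER1 (0.00) and CRY1 (0.03) were among those that did not pass. CIART and BMAL1 lay below the median expression.

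Of the neuronal genes that REST is known to repress, 4 of 18 rose and 7 fell, with a median of -0.03. Only VGF, SNAP25, STMN3, L1CAM and GAD1 of these lay above the median expression, so the median of the list says little. SNAP25, a synaptic vesicle fusion protein gene, rose by 1.06 ± 0.07 and the secreted neuropeptide precursor gene VGF fell by 2.30. The corepressor genes RCOR1 (-0.65) and HDAC2 (-0.56) fell and the demethylase gene KDM1A (0.45) rose, with 4 of 8 cofactors lower and 3 higher.

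The remaining lists went both ways or moved little. Exocyst partners rose in 4 of 8 cases and fell in 2, with EXOC2 at 0.49 and EXOC5 at -0.77. RNA exosome partners fell in 6 of 12 and rose in 1, with MTREX at -0.74 and EXOSC1 at 0.57. The m6A list had 3 of 11 lower and 3 higher, with YTHDF3 at -0.41 and ZC3H13 at 0.53, and METTL3, the partner of METTL14, at 0.10 and not past the test. The 7SK and super elongation list had 1 of 10 lower, MEPCE at -0.84, and 2 higher, MLLT3 at 0.35 and ELL2 at 0.32. N-terminal acetylation partners fell in 4 of 7, NAA25 at -0.69 and NAA30 at -0.46. Coenzyme Q genes fell in 5 of 10 and rose in 2, with PDSS1 at -0.85 and COQ8A at 0.95. Stress granule genes fell in 3 of 7 and rose in 3. G3BP1, the paralog of G3BP2, changed by -1.14, and TIAL1 by 0.27, a call lost without any 1 of the parent replicates or without colony replicate 1 or 2 (0.19 to 0.31). Multisynthetase genes fell in 2 of 7, RARS1 at -0.91 and KARS1 at -0.68, and rose in 3. Annexins fell in 2 of 8 and rose in 3, with ANXA4 at 0.68 and ANXA11 at 0.64. Of 4 ubiquitin enzymes UBA1 was lower (-0.29) and UBE2Z, which works with UBA6, higher (0.17).

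**Figure D5:**
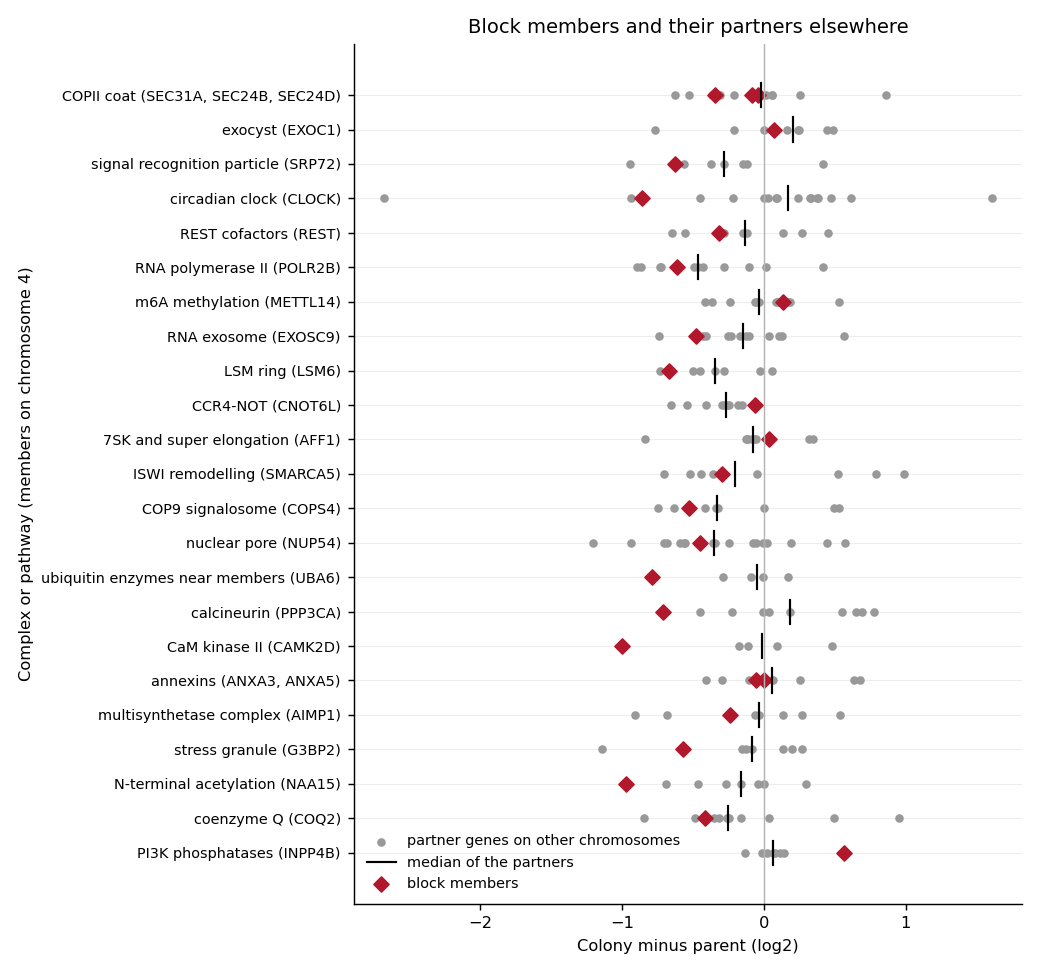
Each row is a complex or pathway, with grey points for partner genes on other chromosomes, a black bar at their median and red diamonds for the block members named in brackets, all as colony minus parent differences on the log2 scale. POLR2B, NUP54 and COPS4 lie among their partners, whereas CAMK2D and PPP3CA lie to the left of theirs and INPP4B to the right.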

How the data were processed

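Expression was measured on 6 Affymetrix arrays, 3 of parent and 3 of colony cells. The authors deposited log2 expression values per probe set, processed with Affymetrix Expression Console per the submitters' processing notes; no source used here gives the version, background correction or normalization, and the log2 scale was read from the values (array medians 6.25 to 6.34 over 33297 probe sets). Gene symbols came from the platform annotation: 19460 probe sets had 1 symbol, 1754 several and 12083 none, and 19429 matched RefSeq by gene identifier with 0 symbols changed. The probe set with the highest mean was kept for each of 18417 genes, 769 of which had more than 1, and no dim gene was removed. Gene order came from RefSeq (GRCh38.p14), as did the promoter windows and their coordinates.

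Groups were compared with limma 3.58.1 in R 4.3.3 (lmFit and eBayes, group only, 2-sided, Benjamini-Hochberg over all genes, threshold 0.05). On simulated data over 18417 genes, 19 of 50 genes changed by 0.3 (log2), 37 of 50 changed by 0.5, 48 of 50 changed by 1 and 50 of 50 changed by 2 were called, with 5 of 18217 unchanged genes. Far fewer genes were changed there than the 43.8% called in the data. The Benjamini-Hochberg cutoff depends on that share, so these rates do not carry over to the real comparison. The members and lists were chosen with earlier results of these data known. Named members were the 6 lowest, the 6 highest, the 4 nearest the median and 11 chosen for their role, of which UBE2D3 was not measured; other named genes were the 4 lowest and highest of the span above the median expression, 4 outside each edge and up to 2 past the test per partner list. Further members and partners were named to fill a role or list, after their values were seen. Alternatives were leaving out each array, shifting arrays to a common median, quantile normalization, testing genes above the median expression alone, averaging the probe sets of a gene, a robust eBayes with trend, and a replicate block.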

Additional observations from a re-analysis of the deposited data

How the results depend on the processing

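In all but 1 alternative, 35 members were lower, the same genes each time; when only genes above the median expression were tested it was 32 of 50, because MRPL1, PAQR3 and RCHY1 were not tested. The number higher ran from 3 to 5: CENPC dropped out when some arrays were left out, and METTL14 passed under quantile normalization (0.15, limma adjusted p = 0.035), among genes above the median expression and without parent replicate 1. Over all genes the count lower ran from 3642 to 4535 and the count higher from 3093 to 4142. Arrays with the same replicate number did not vary together (correlations of their deviations from the group means -0.089, -0.059 and -0.01). With the replicate number as a block, 3931 genes were lower and 3633 higher, against 4212 and 3849, and 35 and 4 members.

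Leaving out 1 array at a time, the median difference (log2) ran from -0.43 to -0.30 for the members, from -0.31 to -0.26 for the other genes of the span above the median expression, from -0.27 to -0.21 for the short arm and from -0.25 to -0.20 for the distal long arm. The proximal long arm stood at -0.33 after quantile normalization. The other genes of the span counted as higher fell to 19 when only the 86 above the median expression were tested, against 39 of 288. RPL34 turned to -0.05 with the mean of its probe sets, which disagree. PRSS48, which did not pass, ran from -0.18 to 0.08 as arrays were left out. Low expression limits the reading of ANXA3, HELQ, MRPL1, PAQR3 and RCHY1, and whether they were above background was not tested.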
